A study of Mus musculus with 12 samples.

Results

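The Kruppel-like factors are zinc finger transcription factors that bind CACCC and GC boxes in DNA. The 9 genes described here are Klf2, Klf3, Klf4, Klf6, Klf7, Klf10, Klf11, Klf12 and Klf13. They were taken as the rows of the deposited gene table with these symbols, and all 9 were found among its 16353 genes. All 9 passed the filter on low counts, which 12499 genes passed. The table held 8 further Klf genes, which are given with the rest of the family below.

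The RNA came from CD8 T cells carrying the transgenic KB5 T cell receptor, in mice of the strain labelled CBA/J. The labels give as antigen the H2b antigens of C57BL/6 mice, injected intravenously as 10000000 splenocytes (a donor-specific transfusion). There were 4 groups of 3 libraries: naive cells from untreated mice, activated cells after the transfusion alone, tolerized cells after the transfusion and 0.5 mg of anti-CD154 (MR1 in the column names), and inflamed cells after the transfusion, anti-CD154 and 100 µg of lipopolysaccharide (LPS). Anti-CD154 blocks CD40 ligand, by which T cells act on antigen-presenting cells, and LPS is a bacterial product that sets off inflammation. Spleens of treated mice were taken at 12 h, and the cells were sorted on the receptor and CD8 to a purity given as 95%. No group received LPS or anti-CD154 without the transfusion. The labels do not say whether the libraries of a group came from separate mice, so p-values measure the spread between these libraries, which may be technical.

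Kruppel-like factors are known in T cells as keepers of the resting state. KLF2 drives the gene for the sphingosine 1-phosphate receptor, by which naive T cells leave lymphoid organs, and it is lost when the T cell receptor is engaged. KLF4 restrains cell division in CD8 T cells. KLF3 and KLF12 are repressors that recruit CtBP proteins. KLF10 and KLF11 were found as genes induced by TGF-beta. KLF13 drives the chemokine gene Ccl5 late after activation. KLF6 and KLF7 are closely related to each other and widely expressed.

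Promoter windows from RefSeq (GRCm38.p6) reach from 250 bases before to 50 bases after the gene start and were present for 8 of the 9 genes. There was none for Klf10. For 6 of the 8 the start used for the window was the gene start given below. For Klf7 it lay 956 bases and for Klf12 136095 bases inside the gene, so these 2 windows belong to a start further in. The windows of Klf2, Klf13 and Klf3, the 3 members with the most reads per kilobase in naive cells, are shown 5′ to 3′ because these genes moved together in the libraries. Capitals mark CACCC boxes (CACCC), GC boxes (GGGCGG) and MEF2-type sequences (CTANNNNTAG), each searched on both strands.
Klf2, chr8:72318812-72319111, plus strand: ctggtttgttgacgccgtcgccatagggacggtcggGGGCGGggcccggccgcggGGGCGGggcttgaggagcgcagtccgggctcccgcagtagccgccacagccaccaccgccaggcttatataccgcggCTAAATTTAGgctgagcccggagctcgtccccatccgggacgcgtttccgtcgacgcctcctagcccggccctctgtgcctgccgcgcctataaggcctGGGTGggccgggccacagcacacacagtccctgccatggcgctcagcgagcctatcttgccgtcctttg
Klf13, chr7:63938866-63939165, minus strand: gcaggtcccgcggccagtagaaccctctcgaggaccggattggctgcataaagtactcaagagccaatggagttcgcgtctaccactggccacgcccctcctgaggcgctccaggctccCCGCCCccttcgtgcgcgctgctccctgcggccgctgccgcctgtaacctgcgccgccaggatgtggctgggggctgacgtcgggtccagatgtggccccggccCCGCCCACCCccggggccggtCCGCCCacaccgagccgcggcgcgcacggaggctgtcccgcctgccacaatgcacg
Klf3, chr5:64803271-64803570, plus strand: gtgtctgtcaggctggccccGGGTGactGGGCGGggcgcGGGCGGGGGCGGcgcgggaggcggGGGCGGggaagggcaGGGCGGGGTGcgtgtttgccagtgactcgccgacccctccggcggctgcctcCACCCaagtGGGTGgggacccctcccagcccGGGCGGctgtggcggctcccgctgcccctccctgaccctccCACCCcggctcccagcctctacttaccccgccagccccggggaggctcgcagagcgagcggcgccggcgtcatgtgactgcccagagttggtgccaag

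The MEF2-type sequence of Klf2 began 118 bases before the gene start and was the only one in the 8 windows, against 3.69% of all 32851 windows of this length. GC boxes were in 7 of the 8 windows, all but that of Klf12, against 35.7% of all windows. CACCC boxes were in 5 of the 8, those of Klf2, Klf3, Klf7, Klf12 and Klf13, against 57.5% of all windows. A FOXO-type sequence (GTAAACA) was in 0 of the 8, against 3.65%. In Klf13 and Klf3 a CACCC box and a GC box shared bases. The base composition ran from 45.7% G and C in Klf12 to 77.7% in Klf11, with a median of 52.7% over all windows, which bears on how often such letters occur by composition alone. These matches describe letters and do not show binding.

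Depth ran from 29335723 to 84533097 reads per library. All 9 T cell markers, Cd8a and Cd8b1 among them, were detected in every library. In CPM (counts scaled to a common library total) they summed to 5339 to 6564 in naive and 2488 to 3982 in antigen-exposed libraries. All 9, 8 and 6 of these markers were called lower in activated, tolerized and inflamed than in naive cells, and the part of this fall in the changes below was not tested. Transcripts of other cells were also present. Macrophage, B cell and erythroid sums were higher in every naive library than in any exposed one, while neutrophil sums were highest in inflamed replicates 1 and 2. The summed level of 12 macrophage markers was 742 to 1851 CPM in naive and 6.43 to 678 CPM in antigen-exposed libraries. For 10 B cell markers the sums were 436 to 556 and 102 to 214 CPM, and for the 9 measured erythroid markers 1271 to 3012 and 26.6 to 387 CPM. The 11 measured neutrophil markers summed to 18.4 to 25.2 CPM in naive, 2.50 to 16.7 in activated, 3.04 to 12.1 in tolerized and 13.4 to 239 CPM in inflamed libraries, with the neutrophil granule gene Elane at 0 in all 6 activated and tolerized libraries. Dendritic, natural killer and platelet cell lists summed to between 0.292 and 37.0 CPM each in all libraries, and CD4 lineage genes to between 39.4 and 77.8 CPM. In naive replicate 3 the 7 activation markers summed to 242 CPM, against 83.0 and 89.8 CPM in the other naive libraries. Fewer cells of a type and less RNA per cell cannot be told apart in such bulk samples.

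The comparison of each antigen-exposed group with naive cells sets cells of transfused mice against cells of untreated mice. Recognition of the antigen is not set apart there from the injection, from anti-CD154 or LPS where given, or from cell make-up. Of the 9 genes, 8 were lower and 0 higher in activated, in tolerized and in inflamed cells (limma, Benjamini-Hochberg adjusted p under 0.05 over all 12499 genes). Among all genes tested, 35.3% were called lower and 35.3% higher in activated cells, 35.9% and 37.4% in tolerized cells, and 35.5% and 36.9% in inflamed cells. Klf10 was the gene that was not called. Without the library richest in macrophage markers in each group, 7, 6 and 7 of the 9 were called. The median log2 change of the 9 genes was -1.88, -1.84 and -1.89 in activated, tolerized and inflamed cells, against -0.039, -0.0099 and -0.0056 over all genes. These 3 comparisons share the naive libraries. For 7 of the 9 genes, all but Klf4 and Klf10, each naive library lay above all 9 antigen-exposed ones. The share of all tested genes that separated in this way was not counted, so it is not shown to be particular to these factors. The sums of T cell, B cell, erythroid and macrophage markers separated likewise.

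**Figure D1:**
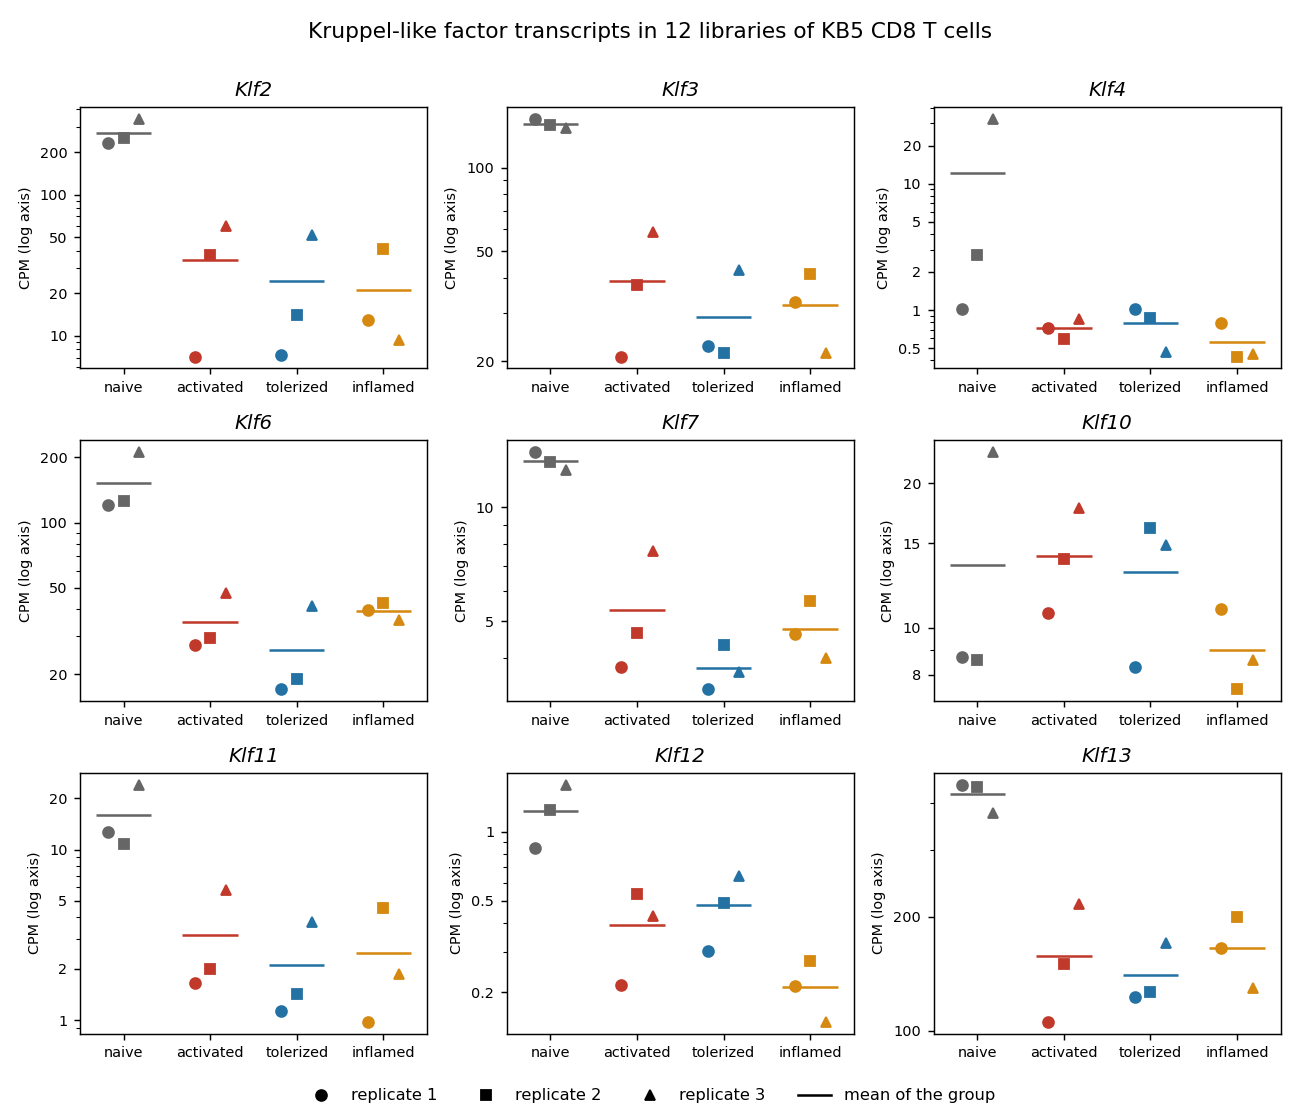
CPM of each of the 9 genes (vertical, log axis) in the 4 groups (horizontal). Points are libraries, with 1 shape per replicate number, and lines are group means. Naive points lie above all others except for Klf4 and Klf10, and Klf4 in naive replicate 3, at 32.4 CPM, stands far above the other naive libraries.

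Klf2, on chromosome 8 (72319062 to 72321654, plus strand), had the highest level per length of the 9 genes in naive cells and the deepest fall. It stood at 230, 253 and 342 CPM in naive replicates 1, 2 and 3. In activated cells it stood at 7.13, 37.4 and 59.4 CPM, in tolerized cells at 7.33, 14.1 and 51.4 CPM, and in inflamed cells at 12.8, 41.3 and 9.26 CPM. All 9 antigen-exposed values were low, and they spread over 8.33-fold among themselves. On the log2(CPM + 1) scale Klf2 fell by 3.35 in activated cells (SE 0.82, adjusted p 0.00401), by 3.86 in tolerized cells (adjusted p 0.00159) and by 3.90 in inflamed cells (adjusted p 0.00145), which is 10.2-, 14.5- and 14.9-fold. In activated cells 13 of the 12499 tested genes (0.104%) had a lower log2 change than Klf2. In tolerized cells 50 genes (0.400%) did so, and in inflamed cells 61 (0.488%). The size of this fall rested on single libraries. It was -2.47 without activated replicate 1 and -3.94 without activated replicate 3. In tolerized cells it was -3.26 without replicate 1 and -4.60 without replicate 3, and in inflamed cells -4.50 without replicate 2.

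Klf2 is also expressed by macrophages, whose markers were higher in naive cells. When the library richest in macrophage markers was left out of each group, its log2 change was -2.52 in activated, -3.30 in tolerized and -3.73 in inflamed cells. Without the library richest in neutrophil markers in each group it was -2.29, -4.42 and -3.52. It was called in all 3 comparisons in both cases. Without the macrophage-rich libraries, the naive ones kept still held macrophage sums of 742 and 1849 CPM. The exposed ones kept held 6.43 to 157 CPM. The fit thus kept the excess of macrophage transcripts in naive cells, and their part in the fall of Klf2 was not tested.

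Klf4, on chromosome 4 (55527137 to 55532475, minus strand), stood at 1.02, 2.75 and 32.4 CPM in naive replicates 1, 2 and 3. Its antigen-exposed levels were 0.720, 0.586 and 0.844 CPM in activated, 1.03, 0.870 and 0.466 CPM in tolerized, and 0.795, 0.428 and 0.447 CPM in inflamed cells. Naive replicate 3 was thus the 1 library with a sizeable level, and naive replicate 1 overlapped the tolerized range. The log2 changes were -1.88, -1.84 and -2.03 (SE 0.77, adjusted p 0.0461, 0.0491 and 0.0331). Without naive replicate 3 they were -0.68, -0.63 and -0.82 (adjusted p 0.0351, 0.0447 and 0.0145), and without naive replicate 1 they were -2.70, -2.65 and -2.84. The call was lost in 16 of 22 alternative settings for activated, 16 for tolerized and 8 for inflamed cells. The same naive library held the highest level of 6 of the 9 genes among naive libraries and, of the activation markers, 79.7 CPM of the early response gene Nr4a1 against 10.3 and 11.9 CPM in the others. The share of all tested genes that were highest in this library was not counted. Among naive libraries, replicate 3 also had the highest erythroid (3012 CPM), B cell (556 CPM) and neutrophil (25.2 CPM) sums. The same held for the dendritic, natural killer and platelet sums. Its T cell sum was the lowest, at 5339 CPM against 6564 and 6494 CPM in replicates 1 and 2. The part of these differences in the Klf4 level was not tested.

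KLF3 and KLF12 share the CtBP-binding repressor role. Klf3, on chromosome 5 (64803521 to 64832901, plus strand), was even among naive libraries at 150, 142 and 139 CPM. It stood at 20.8, 37.6 and 58.4 CPM in activated, 22.6, 21.5 and 42.7 CPM in tolerized, and 32.9, 41.4 and 21.4 CPM in inflamed cells. The groups of exposed cells overlapped one another and lay far below the naive values. The log2 changes against naive cells were -1.97, -2.34 and -2.18 (SE 0.36, adjusted p 0.000731, 0.000197 and 0.000317). On the other strand the exons of Klf3 overlap the transcript Gm20033, and those of Klf7 overlap Gm13748 and Gm26649. None of these has a row in the table. The strand setting of the counting is not given in the sources used here, so reads of these pairs cannot be told apart.

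Klf12, on chromosome 14 (99866181 to 100285891, minus strand), was near the lower end of what was measured. It had 0.848, 1.24 and 1.60 CPM in naive, 0.216, 0.533 and 0.431 CPM in activated, 0.304, 0.491 and 0.640 CPM in tolerized, and 0.214, 0.273 and 0.149 CPM in inflamed cells, where the lowest counts were 6 reads in activated replicate 1 and in inflamed replicate 3. All 3 naive values were above the others. Its log2 changes were -0.67, -0.58 and -0.87 (SE 0.15, adjusted p 0.00226, 0.00457 and 0.000382). Because the added pseudocount of 1 CPM is larger than most of these values, the changes are understated. With a pseudocount of 0.1 CPM they were -1.45, -1.20 and -2.07. The call in tolerized cells was lost (adjusted p 0.0700) when the libraries richest in macrophage markers were left out.

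Of the pair induced by TGF-beta, Klf11 was called lower and Klf10 was not called. Klf11, on chromosome 12 (24651371 to 24662782, plus strand), stood at 12.7, 10.8 and 24.03 CPM in naive cells. It stood at 1.66, 1.998 and 5.76 CPM in activated, 1.14, 1.43 and 3.78 CPM in tolerized, and 0.979, 4.56 and 1.86 CPM in inflamed cells. Its log2 changes were -2.08, -2.45 and -2.34 (SE 0.49, adjusted p 0.00316, 0.00105 and 0.00138). The size depends on the pseudocount: at 5 CPM the values were -1.34, -1.52 and -1.46. Without the neutrophil-rich libraries, naive replicate 3 among them, they were -1.47 in activated and -1.66 in inflamed cells. No exposed library reached a naive one.

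Klf10, on chromosome 15 (38291464 to 38300711, minus strand), stood at 8.70, 8.57 and 23.2 CPM in naive cells. It stood at 10.7, 13.9 and 17.7 CPM in activated, 8.28, 16.1 and 14.8 CPM in tolerized, and 10.9, 7.46 and 8.59 CPM in inflamed cells. The 4 groups overlapped, and the naive group was the widest. Its log2 changes were 0.18, 0.054 and -0.41 (SE 0.37, adjusted p 0.675, 0.903 and 0.337), with 95% intervals of -0.63 to 0.99, -0.76 to 0.86 and -1.22 to 0.40. With counts scaled by library size alone, the first 2 turned to -0.076 and -0.23. When the library richest in neutrophil markers was left out of each group, naive replicate 3 among them, Klf10 was higher in activated than in naive cells by 0.83 (adjusted p 0.0391). Without naive replicate 3 alone the change was 0.62 (adjusted p 0.0836). The difference between the changes of Klf10 and Klf11 was not tested.

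Klf13, on chromosome 7 (63886351 to 63938915, minus strand), had the most reads of the 9 genes in every library. It stood at 448, 442 and 378 CPM in naive, 106, 150 and 217 CPM in activated, 123, 126 and 171 CPM in tolerized, and 166, 200 and 129 CPM in inflamed cells. Even the lowest naive library was well above the highest exposed one. The log2 changes were -1.48, -1.60 and -1.37 (SE 0.24, adjusted p 0.000337, 0.000167 and 0.000474), which is 2.78-, 3.03- and 2.58-fold.

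Klf6, on chromosome 13 (5861489 to 5870393, plus strand), stood at 121, 126 and 212 CPM in naive, 27.4, 29.4 and 47.2 CPM in activated, 17.1, 18.9 and 41.2 CPM in tolerized, and 39.4, 42.7 and 35.6 CPM in inflamed cells. Its log2 changes against naive cells were -2.10, -2.59 and -1.89 (SE 0.33, adjusted p 0.000246, 4.73e-05 and 0.000427). Its relative Klf7, on chromosome 1 (64029448 to 64122345, minus strand), had far fewer reads. It stood at 14.0, 13.2 and 12.6 CPM in naive, 3.78, 4.66 and 7.65 CPM in activated, 3.31, 4.33 and 3.67 CPM in tolerized, and 4.62, 5.67 and 3.998 CPM in inflamed cells. Klf7 changed by -1.21, -1.59 and -1.32 (SE 0.21, adjusted p 0.000496, 6.38e-05 and 0.000238). Both genes were lower in every exposed library than in any naive one.

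**Figure D2:**
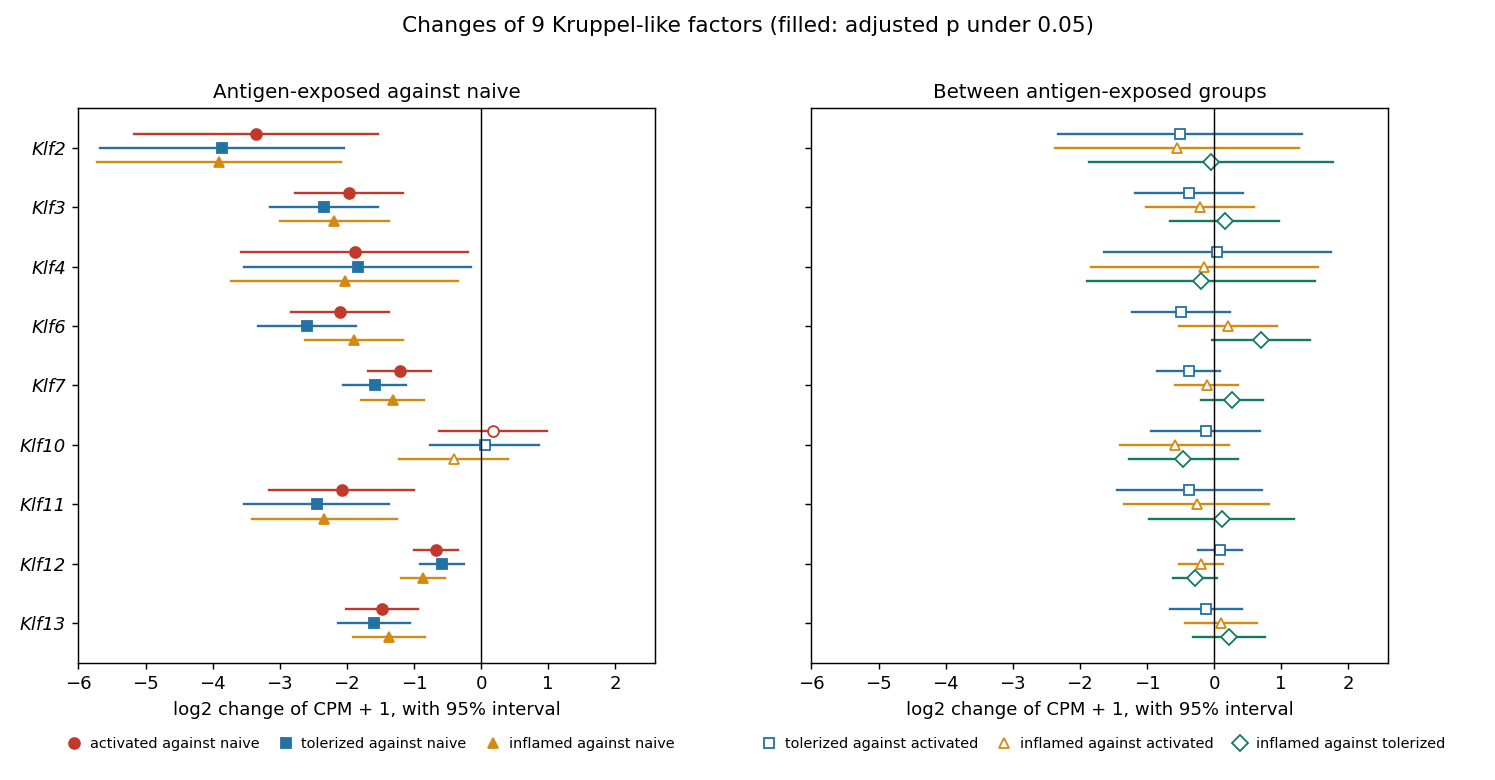
Log2 change of CPM + 1 (horizontal) of each gene, with its 95% interval, in the 3 comparisons with naive cells (left) and the 3 comparisons among antigen-exposed groups (right). Filled symbols have an adjusted p under 0.05. Of the 9 genes, 8 lie below 0 on the left and none is filled on the right, where the intervals of Klf2 and Klf4 are the widest.

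Levels of different genes can be set side by side only per length of exon. In RPKM, which is CPM divided by the exon length in kilobases, naive cells held 151 ± 32.5 of Klf2 (SD, n = 3), 66.1 ± 6.10 of Klf13, 62.0 ± 2.40 of Klf3, 36.3 ± 12.2 of Klf6 and 9.94 ± 0.54 of Klf7. Klf10, Klf11 and Klf4 stood at 4.44 ± 2.77, 3.98 ± 1.80 and 3.96 ± 5.79, whose spreads overlap, and Klf12 at 0.214 ± 0.066. Klf13 and Klf3 were within their spread of each other. In activated cells the order was Klf13 (24.6 ± 8.75), Klf2 (19.1 ± 14.5), Klf3 (16.8 ± 8.14) and Klf6 (8.22 ± 2.59), with overlapping spreads among the first 3. Klf10 (4.64 ± 1.15) and Klf7 (4.01 ± 1.52) came next, above Klf11 (0.788 ± 0.571), Klf4 (0.235 ± 0.042) and Klf12 (0.0686 ± 0.0282).

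The 9 genes together summed to 338 ± 46.4 RPKM in naive, 78.5 ± 36.8 in activated, 61.9 ± 26.5 in tolerized and 67.9 ± 20.6 RPKM in inflamed cells (SD, n = 3). Within that sum Klf2 held 44.4% ± 3.43 in naive cells and 21.4% ± 10.7, 18.5% ± 11.004 and 15.5% ± 8.41 in the 3 exposed groups. The share of Klf13 was 19.9% ± 4.22 in naive cells and 32.8% ± 4.96, 37.6% ± 7.93 and 38.7% ± 3.41 in the exposed groups. Klf10 held 1.26% ± 0.60 and then 6.40% ± 1.64, 7.37% ± 2.73 and 4.68% ± 1.70. Klf3 held a similar share throughout, from 18.6% ± 2.97 in naive to 21.3% ± 0.38 in activated cells. Shares of 1 sum move against one another, so a rising share is no rise in level.

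**Figure D3:**
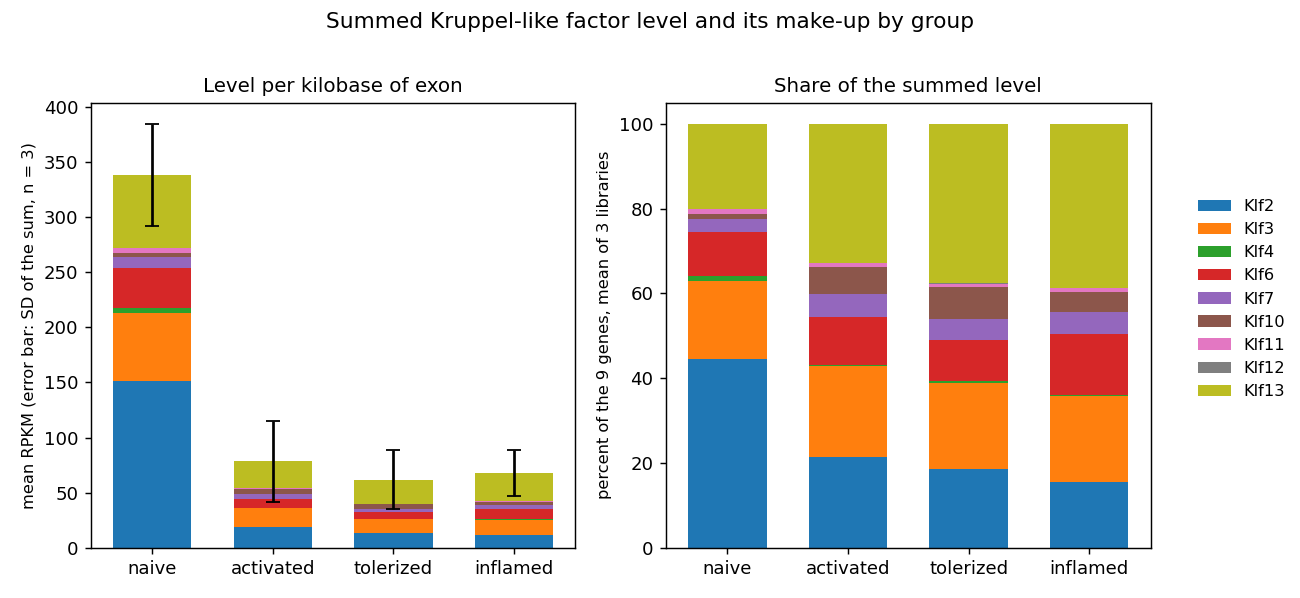
Left: summed level of the 9 genes in RPKM (vertical, from 0) by group, stacked by gene, with error bars for the SD of the sum over 3 libraries. Right: mean share of each gene in that sum, in percent. The sum falls from 338 RPKM in naive cells to between 61.9 and 78.5 RPKM, and Klf13 takes the place of Klf2 as the largest share.

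Whether costimulation blockade or LPS altered these factors is asked by the 3 comparisons among antigen-exposed groups. In tolerized against activated cells 0 of the 9 genes were called, where 0% of all genes were called higher and 0% lower. Of all 12499 genes, 531 had an unadjusted p under 0.05 there, and none of the 9 did. In inflamed against activated cells 0 of the 9 were called, against 1.54% of all genes higher and 0.384% lower. In inflamed against tolerized cells 0 of the 9 were called, against 1.66% higher and 1.12% lower. The count for the 9 genes was 0 in each of the 3 comparisons under all 22 alternative settings, including the fit with replicate numbers as a block. The smallest adjusted p of any of the 9 was 1, 0.689 and 0.369 in the 3 comparisons (limma).

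The intervals show what these comparisons could have missed. For Klf2 the change in tolerized against activated cells was -0.51 with a 95% interval of -2.32 to 1.31, and in inflamed against tolerized cells it was -0.045 with an interval of -1.86 to 1.77. For Klf4 the interval was about as wide, -1.64 to 1.74 in tolerized against activated cells. For Klf13 it was narrower, at -0.66 to 0.42 in that comparison and -0.31 to 0.77 in inflamed against tolerized cells. For Klf7 it was -0.84 to 0.091 in tolerized against activated cells. For Klf12, whose levels lie below the pseudocount, the interval of -0.24 to 0.42 is on a compressed scale. Its change there was 0.086, and 0.24 at a pseudocount of 0.1 CPM and 0.28 by limma-voom.

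Klf6 came nearest to a difference by LPS. Its 3 inflamed libraries (39.4, 42.7 and 35.6 CPM) overlapped the tolerized ones (17.1, 18.9 and 41.2 CPM) only through tolerized replicate 3. The change was 0.70 (95% interval -0.034 to 1.43, unadjusted p 0.0596, adjusted p 0.369). It ranged from 0.47 without tolerized replicate 1 to 1.08 without tolerized replicate 3, and its adjusted p over the alternatives ran from 0.0630 to 0.722. Klf12 was listed lower in inflamed than in tolerized cells without overlap, at 0.149 to 0.273 against 0.304 to 0.640 CPM, with a change of -0.28 (interval -0.61 to 0.047, adjusted p 0.439), which was -0.87 at a pseudocount of 0.1 CPM (adjusted p 0.309) and -1.13 by limma-voom (adjusted p 0.390). Klf10 changed by -0.58 (interval -1.39 to 0.23, adjusted p 0.689) in inflamed against activated cells, where 10.7 to 17.7 CPM stood against 7.46 to 10.9 CPM.

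The spread of these genes within the exposed groups followed the same libraries. Activated replicate 3 was the highest of its group for 8 of the 9 genes and activated replicate 1 the lowest for 8. Tolerized replicate 3 was highest for 6 and tolerized replicate 1 lowest for 7, and inflamed replicate 2 was highest for 7 and inflamed replicate 3 lowest for 6. Markers of activation (Cd69, Il2ra, Nr4a1, Egr2, Tnfrsf9, Ifng and Irf4) stood in another order. Their sum was 3512, 2901 and 2388 CPM in activated replicates 1, 2 and 3, 3502, 3129 and 2316 CPM in tolerized replicates, and 3324, 2744 and 3799 CPM in inflamed replicates. For Klf2, Klf6 and Klf13 the order of the 3 libraries was the exact opposite of this order in all 3 exposed groups. It was so in 2 of the 3 groups for Klf3, Klf7, Klf11 and Klf12, in 1 for Klf10 and in none for Klf4. Naive libraries went the other way for Klf2, Klf4, Klf6 and Klf12, whose order there was that of the activation sums (83.0, 89.8 and 242 CPM), and were in the opposite order for Klf3, Klf7 and Klf13. The share of all tested genes with such orders was not counted, so these orders are not shown to be particular to these factors.

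The macrophage sum was 678, 157 and 53.7 CPM in activated and 128, 103 and 35.8 CPM in tolerized replicates 1, 2 and 3. In these groups the library with the lowest Klf2 had the highest macrophage level. In inflamed replicates the macrophage sum was 383, 145 and 6.43 CPM, and the library with the lowest Klf2 had the lowest macrophage level. The T cell marker sum had the order of Klf2 in all 3 exposed groups. It was 2488, 3422 and 3912 CPM in activated, 2862, 2931 and 3682 CPM in tolerized, and 3728.91, 3982 and 3728.65 CPM in inflamed replicates, where the first and the last hardly differ. The B cell sum was 121, 155 and 142 CPM in activated, 102, 162 and 214 CPM in tolerized, and 150, 145 and 103 CPM in inflamed replicates. It had the order of Klf2 only in the tolerized group. The part of the cell make-up of each library in the Klf levels was not tested. Correlations were taken as a description over the 9 antigen-exposed libraries with group means removed. The deviations of Klf2 there correlated with those of Klf3 at r = 0.94, of Klf13 at 0.92, of Klf12 at 0.90 and of Klf4 at -0.50. The libraries share depth and cell make-up between genes.

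**Figure D4:**
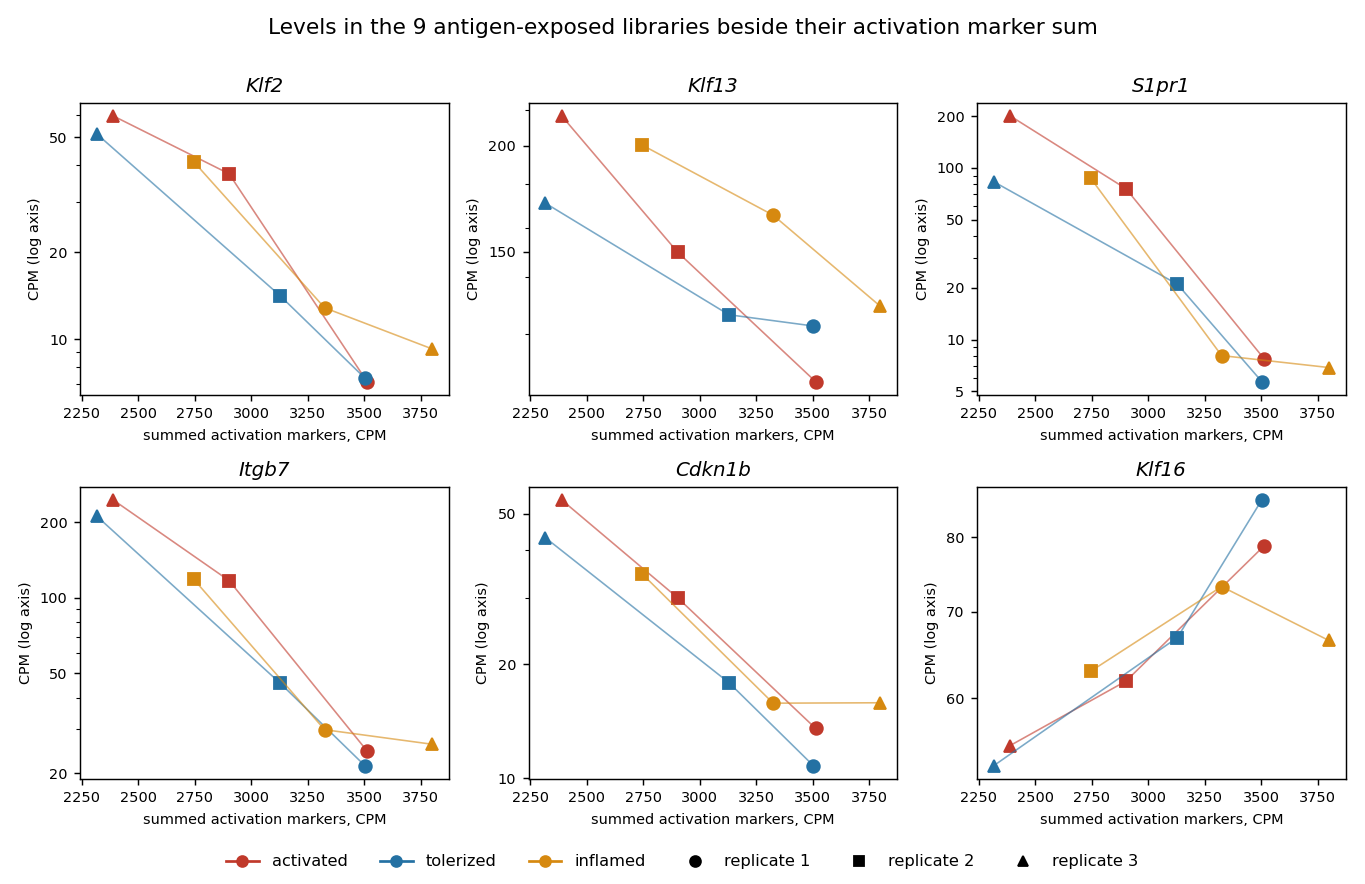
CPM (vertical, log axis) of Klf2, Klf13, 3 genes activated by KLF factors (S1pr1, Itgb7, Cdkn1b) and Klf16 against the summed CPM of 7 activation markers (horizontal) in the 9 antigen-exposed libraries, joined within each group. Klf2, Klf13, S1pr1 and Itgb7 fall at each step to the right in all 3 groups, while Klf16 does not. Cdkn1b does so in 2 groups. Among targets not drawn, S1pr4 and Il6ra do so in 2, Ccr7 and Cdkn1a in 1 and Myc in none.

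Most genes known to be regulated by KLF2 or KLF4 were also lower in exposed cells. Of 10 such genes, all tested, 7 were lower and 2 higher in activated cells (median -2.25), 7 lower and 3 higher in tolerized, and 7 lower and 2 higher in inflamed cells. Of all genes 35.3%, 35.9% and 35.5% were lower and 35.3%, 37.4% and 36.9% higher in these comparisons. The list was chosen with the results of these data known, so its direction is no independent evidence. S1pr1, the receptor by which T cells leave lymphoid organs, fell from 606, 602 and 465 CPM in naive libraries to 7.74, 75.6 and 201 CPM in activated ones, with a log2 change of -3.43 (SE 1.26, adjusted p 0.0298). In tolerized cells it stood at 5.70, 21.0 and 83.0 CPM and in inflamed cells at 8.07, 87.3 and 6.88 CPM. Within each exposed group these libraries had the same order as for Klf2, and in naive libraries the reverse one. The integrin chain gene Itgb7 changed by -3.01 (SE 0.93, adjusted p 0.0140), from 728 ± 57.6 to 129 ± 111 CPM (SD, n = 3). Also lower were S1pr4, Il6ra, Ccr7 and the cell cycle inhibitor gene Cdkn1b. Myc, which KLF4 and KLF2 restrain, was higher by 3.53 (SE 0.25, adjusted p 8.18e-07), from 75.5 ± 18.6 to 894 ± 282 CPM. The other gene called higher in all 3 exposed groups was Cdkn1a, a cell cycle inhibitor that KLF factors are known to induce, at 1.01 ± 1.21 CPM in naive and 5.80 ± 1.51 CPM in activated cells.

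Cdkn1a was the 1 gene of that list called between inflamed and tolerized cells. It stood at 3.34, 3.62 and 4.37 CPM in tolerized and at 36.9, 26.5 and 15.8 CPM in inflamed cells, a log2 change of 2.45 (SE 0.39, adjusted p 0.00651). Every inflamed library was above every tolerized and activated one. Among the inflamed libraries its order was that of the neutrophil marker sums (239, 111 and 13.4 CPM) and of the macrophage sums (383, 145 and 6.43 CPM). Without the macrophage-rich library of each group the change was 2.12 and not called (adjusted p 0.103), and without the neutrophil-rich ones it was 2.27 (adjusted p 0.00666). With replicate numbers as a block the call was lost (2.44, adjusted p 0.152), as were those of all genes in this comparison. Against activated cells Cdkn1a was higher by 1.96 (adjusted p 0.0267). There the block kept the call (adjusted p 0.0322), and leaving out the macrophage-rich libraries ended it (1.84, adjusted p 0.245). So did leaving out activated replicate 2 (1.97, adjusted p 0.106) or 3 (1.79, adjusted p 0.0996), or inflamed replicate 1 (1.67, adjusted p 0.135) or 2 (1.90, adjusted p 0.115). The call was also lost with a pseudocount of 0.1 CPM (2.12, adjusted p 0.154) and with no filter (1.96, adjusted p 0.0511). It was lost too with only the 2 groups compared and no block (1.95, adjusted p 0.0669).

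The regulators of KLF2 in the fixed list are the FOXO factors, the ERK5 kinase cascade, the MEF2 factors it activates, and ubiquitin ligases. Of 14 tested genes 10 were lower and 1 higher in activated cells (median -0.68), and 9 were lower and 1 higher in tolerized and in inflamed cells, beside 35.3% to 35.9% of all genes lower and 35.3% to 37.4% higher. Mef2c fell from 21.1 ± 3.17 to 5.37 ± 0.60 CPM (log2 change -1.79, SE 0.23, adjusted p 5.33e-05). Foxo4 changed by -1.62 (SE 0.34, adjusted p 0.00171) and Foxo1, the factor best known for driving Klf2, by -1.47 (SE 0.31, adjusted p 0.00173), from 341 ± 23.7 to 132 ± 63.8 CPM. Map3k3, an upstream kinase of ERK5, changed by -1.40 (SE 0.22, adjusted p 0.000221). The ligase gene Smurf1, whose product marks KLF2 for degradation, was itself lower, while Fbxw7, another ligase gene of the list, was the 1 called higher (0.66, SE 0.13, adjusted p 0.00106). In the comparisons among exposed groups 0 of the 14 were called.

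**Figure D5:**
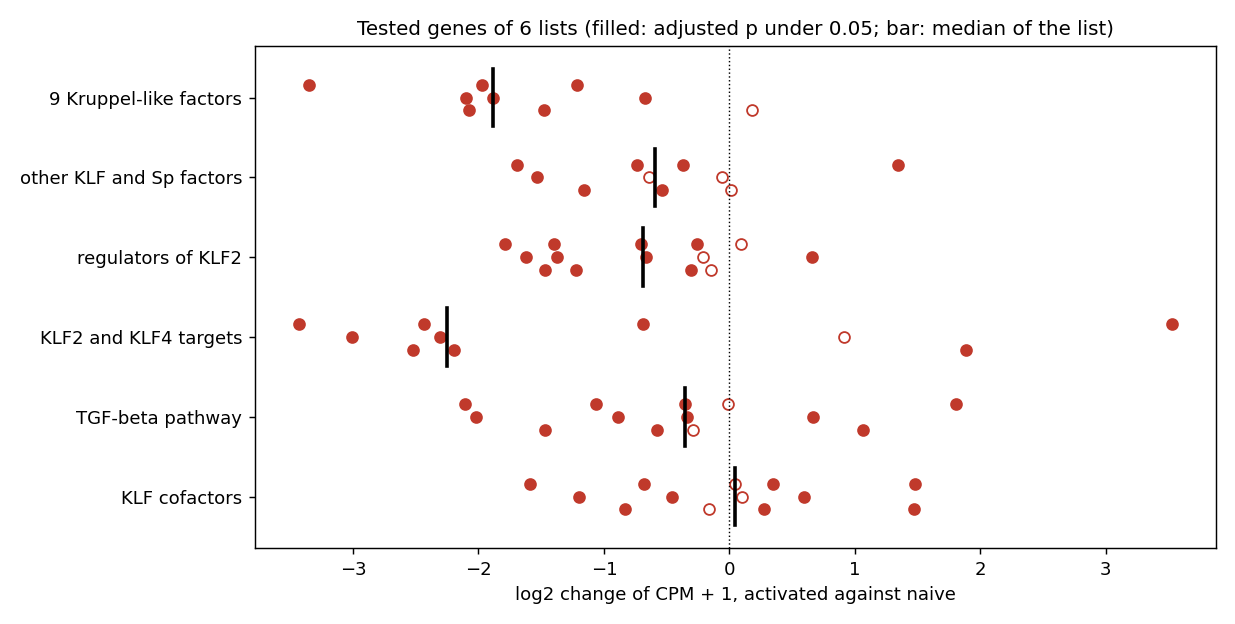
Log2 change of CPM + 1 in activated against naive cells (horizontal) for every tested gene of 6 lists (vertical). Filled points have an adjusted p under 0.05 and black bars are medians. The 9 genes have a median of -1.88, their known targets -2.25 and the cofactors 0.044.

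The rest of the family did not move as 1 block. Of 17 further Klf and Sp genes, 16 were in the table and 10 passed the filter, so the counts that follow leave out Klf5, Klf14, Klf17, Sp5, Sp7, Sp8 and Sp9. Of the 10, 6 were lower and 1 higher in each of the 3 comparisons with naive cells (median -0.59 in activated cells). Of all genes 35.3% to 35.9% were lower and 35.3% to 37.4% higher in these comparisons. The 6 were Klf1, Klf15, Sp2, Sp3, Sp4 and Sp6 in activated and tolerized cells. In inflamed cells Klf8 was called lower and Sp2 was not. Klf16 was the 1 that rose. It stood at 24.7, 21.0 and 29.2 CPM in naive, 78.7, 61.9 and 55.2 CPM in activated, 85.5, 66.9 and 53.2 CPM in tolerized, and 73.2, 63.0 and 66.5 CPM in inflamed cells, and no naive library reached an exposed one. Its log2 changes were 1.35, 1.41 and 1.41 (SE 0.18, adjusted p 9.28e-05, 5.81e-05 and 5.64e-05). Per length this was 9.42 RPKM in naive and 24.6 RPKM in activated cells, the latter equal to the mean of Klf13.

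Klf1, the factor of red blood cell precursors, was lower by 1.69, 1.65 and 1.68 on the log2 scale, with means of 3.27 ± 2.38 CPM in naive and 0.216 ± 0.252 CPM in activated cells. The erythroid marker sums given above fell likewise, and their part in it was not tested. Klf15 changed by -0.73 in activated cells (adjusted p 0.00192) at 1.02 ± 0.41 CPM in naive cells. Klf8 changed by -0.64, -0.43 and -0.92 and was called in inflamed cells (adjusted p 0.0123). Klf9 was at 0.639 ± 0.298 CPM in naive and 1.29 ± 0.38 CPM in inflamed cells (change 0.48, adjusted p 0.0508). Klf5, Klf14 and Klf17 had means of at most 0.201 CPM in every group.

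Among the Sp factors, which bind the same GC boxes, Sp1 held a level of 206 ± 13.9 CPM in naive and 199 ± 25.0 CPM in activated cells, a change of -0.056 (adjusted p 0.626). Sp3 was lower by 0.54 (adjusted p 0.00190), Sp2 by 0.37 (adjusted p 0.0134), Sp4 by 1.53 (adjusted p 0.00134) and Sp6 by 1.16 (adjusted p 0.00734). Sp6 stood at 48.6 ± 6.30 CPM in naive, 22.1 ± 8.16 in activated, 10.3 ± 4.05 in tolerized and 12.4 ± 4.55 CPM in inflamed cells. None of the 10 was called among exposed groups.

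The TGF-beta pathway, from which KLF10 and KLF11 take their older names, was mixed. Of 14 listed genes Smad6 did not pass the filter, and of the 13 tested 8 were lower and 3 higher in activated cells (median -0.35), 8 and 3 in tolerized cells, and 8 and 4 in inflamed cells, beside 35.3% to 35.9% of all genes lower and 35.3% to 37.4% higher. The receptor genes Tgfbr1, Tgfbr2 and Tgfbr3 were lower, with Tgfbr3 at 91.1 ± 13.1 CPM in naive and 25.1 ± 18.8 CPM in activated cells (-2.10, SE 0.53, adjusted p 0.00473). The inhibitor gene Smad7 fell by 2.02 (SE 0.27, adjusted p 7.63e-05), and the repressor gene Tgif1 rose by 1.81 (SE 0.18, adjusted p 8.68e-06). Smad3, a transducer of the pathway, was higher in inflamed cells. It stood at 39.6, 28.5 and 58.1 CPM in tolerized and at 207, 189 and 207 CPM in inflamed cells, a log2 change of 2.28 (SE 0.21, adjusted p 0.000327), with 2.59 against activated cells (adjusted p 0.000178). With replicate numbers as a block the first was not called (2.29, adjusted p 0.0973) and the second was (2.59, adjusted p 0.00463). Klf10 and Klf11 did not pass the test in either comparison.

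Among 13 cofactors through which KLF proteins repress or activate, 5 were lower and 5 higher in activated cells (median 0.044), close to the share of all genes (35.3% lower and 35.3% higher). The gene Ctbp2, for 1 of the corepressors bound by KLF3 and KLF12, was lower (-1.20, SE 0.33, adjusted p 0.00742) at a low level of 3.21 ± 1.07 CPM in naive cells. Ctbp1 was at 210 ± 14.1 CPM in naive and 255 ± 22.5 CPM in activated cells and was higher by 0.28 (SE 0.10, adjusted p 0.0321). The deacetylase gene Hdac2 rose by 1.48 and Wdr5 by 1.47, and the acetyltransferase gene Kat2b fell by 1.59 (SE 0.38, adjusted p 0.00348).

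The genes whose pattern was most like that of each factor were found by the Pearson correlation of log2(CPM + 1) over the 12 libraries, as a description. Most of it is the step from naive to exposed cells, so r over the 9 exposed libraries is given beside it. For Klf2 they were Tecpr1 (r = 0.994 over 12 and 0.991 over 9), Fam189b (0.993 and 0.989) and Abca7 (0.992 and 0.981). For Klf3 they were Gstk1 (0.995 and 0.977), Bcl9l and Zfp512. For Klf13 they were Olfr99 (0.995 and 0.988), Galnt6 and Tap2. Klf6 was most like Fez2 (0.978 and 0.902), Btg1 and Oplah, Klf7 most like Il1rl2 (0.992 and 0.959), Ppp1r3f and Cyp4f13, Klf11 most like Pnrc1 (0.974 and 0.909), Psd2 and Apbb1, and Klf12 most like Hist2h3c2 (0.9754 and 0.865), Il9r and Urod. For Klf4 the nearest were Chrna2 (0.993 and 0.855), Tmem56 (0.980 and 0.229) and Ccin (0.973 and -0.13). Klf10 had no close match: Itgb1bp2, the nearest, reached 0.756, followed by Papss2 (0.728) and Mcam (0.719).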

How the data were processed

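Messenger RNA of 12 libraries was analysed from 1 deposited table. Its values are whole read counts per gene written with commas, which the authors had not normalized. Per the submitters' processing notes the tools were TopHat2, bedtools and DESeq and the builds mm10 and GRCm38, with no versions or roles. The labels' extraction text also names cultured embryonic fibroblasts, unlike the other fields, which name sorted T cells. Because the commas make the values text, their unit was recorded as other, a count model was not used, and limma-trend (limma 3.58.1, R 4.3.3) was fitted on log2(CPM + 1). CPM used trimmed mean of M factors (0.897 to 1.22, trimming 30% of M and 5% of A values). Genes needed 10 reads at the median library size (0.258 CPM) in 3 libraries and 15 reads in all. The fit had 4 group means over all 12 libraries, and p-values were adjusted over 12499 genes in each comparison. It was tested on simulated data first. Between 55.6% and 64.4% of values from 1 to 20 were even, so read pairs may be counted as 2, and reads are not independent molecules. RPKM is CPM per kilobase of the deposited exon length.

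The 9 members, the gene lists and the markers were chosen with earlier results of these data known. Named genes are all members, all measured Klf and Sp genes, and up to 4 called genes per list with the largest change in activated against naive and in inflamed against tolerized cells. 1 gene of the target list counts in its totals and is not reported here. The genes most like a member are the 3 with the highest r, leaving out predicted genes and receptor segments. Others of a list are named only to complete a count or a role, after their values were seen, as are the correlations between members and the order of libraries. Alternatives were median-of-ratios or library-size scaling, pseudocounts of 0.1 and 5 CPM, no filter, limma-voom, only the 2 groups compared, those 2 with replicate numbers as a block, leaving out each library singly, and leaving out the library of each group richest in macrophage or in neutrophil markers. Same-numbered libraries deviated together (r over 0.1 for all 3 numbers) in tolerized against activated (0.19 to 0.60) and inflamed against activated cells (0.15 to 0.64) and not in the other 4 comparisons. No label gives the meaning of these numbers, and the block changed no call of a member in these 2 comparisons. In no comparison was every library most like the one of its own number. Gene coordinates are from the RefSeq annotation of GRCm38, and strands and exon overlaps from its GENCODE annotation.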

Additional observations from a re-analysis of the deposited data

How the results depend on the processing

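The 54 log2 changes of the 9 members were refitted under 22 alternatives, giving 1188 values, of which 41 lost the call, 1 gained it and 41 changed sign. Of the 41 lost calls 40 were of Klf4. The number of members called was 6 to 8 in the comparisons with naive cells and 0 in the others under every alternative. Under the replicate block, fitted on the 2 groups compared, 7 were called in each comparison with naive cells, Klf4 being lost (adjusted p 0.110, 0.140 and 0.0746). The block changed no other call of a member. Library size alone moved the median of all genes by -0.22, -0.24 and -0.27 in activated, tolerized and inflamed against naive cells.

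Changes of sign were in values that were not called. Library size alone gave Klf10 -0.076 in activated and -0.23 in tolerized against naive cells. Leaving out the macrophage-rich libraries gave Klf4 -0.049 in tolerized against activated, Klf13 -0.16 in inflamed against activated and Klf3 -0.023 in inflamed against tolerized cells. Leaving out the neutrophil-rich ones gave Klf12 -0.094 in tolerized against activated, Klf13 -0.18 in inflamed against activated and Klf2 0.89 in inflamed against tolerized cells, where limma-voom gave 0.0023. The causes were not tested.

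With each library left out in turn, Klf10 ranged from -0.047 to 0.62, -0.17 to 0.50 and -0.63 to 0.039 in activated, tolerized and inflamed against naive cells. In tolerized against activated cells the ranges were -1.38 to 0.085 for Klf2, -0.056 to 0.18 for Klf4, -0.32 to 0.14 for Klf10, -0.73 to 0.048 for Klf11, -0.016 to 0.17 for Klf12 and -0.40 to 0.14 for Klf13. In inflamed against activated cells they were -1.43 to 0.040 for Klf2, -0.61 to 0.13 for Klf3, -0.31 to 0.14 for Klf7, -0.68 to 0.16 for Klf11 and -0.17 to 0.37 for Klf13. In inflamed against tolerized cells they were -0.65 to 0.70 for Klf2, -0.051 to 0.46 for Klf3 and -0.29 to 0.47 for Klf11.

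Over all genes, 240 were called in inflamed against activated cells, with 67 under the block, 98 with only the 2 groups, 52 and 132 without macrophage- and neutrophil-rich libraries, and 107 to 338 with 1 library left out. In inflamed against tolerized cells the count was 348, with 0, 151, 140 and 259 under the same settings and 156 to 540 with 1 library left out. Without tolerized replicate 1, 57 genes were called in tolerized against activated cells, against 0 otherwise. Depth limits Klf12, whose exposed libraries held as few as 6 reads.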
